A study of Mus musculus with 12 samples.

Results

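The genes described here encode the vesicle fusion and release machinery: the syntaxins, SNAP-25 relatives and VAMPs that drive membrane fusion, the syntaxin-binding proteins, the synaptotagmins and Doc2 proteins that sense calcium, the Unc13 and RIM proteins, the complexins and the synapsins. They were picked by symbol (Syt, Stx, Stxbp, Vamp, Snap, Rims and Cplx followed by a number, symbols starting with Doc2, Syn1 to 3 and Unc13a to d). These symbols were set with earlier results of these data known, and Doc2b and Stxbp3a were given beforehand as leading genes of the set. Of the 24079 genes counted, 70 carried such a symbol, and 66 of these had at least 15 reads summed over the 12 libraries, out of 17823 genes that reached this minimum. The 4 below it were Syt8 with 14 reads, Cplx4 with 10 reads, and Stx19 and Vamp7, both listed at 0. Snap91 was taken in by its symbol only, since it encodes the endocytic adaptor AP180 and not a SNARE.

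The study asked which mRNAs on the ribosomes of CA1 pyramidal neurons differ when FMRP, the RNA-binding protein lost in fragile X syndrome, is absent. Both genotypes carried the RiboTag allele, which puts an HA epitope on the ribosomal protein Rpl22 after Cre recombination, and a tamoxifen-inducible Cre driven by the Wfs1 promoter (Wfs1-CreERT2). The males were wild type or lacked Fmr1 (Fmr1-/y, named Fmr1 KO here), were 2 to 6 months old, received tamoxifen at 100 mg/kg on 3 days and were taken 1 week later. Tagged ribosomes were immunoprecipitated from whole hippocampus, and each of the 6 libraries per genotype came from a pool of 4 to 6 mice. Library depth was 39400980 to 55745464 reads on genes in wild type and 43106629 to 65565479 in Fmr1 KO. The count of Fmr1 itself was 1971 to 2608 per wild-type library, and in Fmr1 KO it had 1 read in 1 library and 0 in the other 5. Reads were found in every library for 7 markers of CA1 pyramidal neurons, among them Camk2a and Wfs1. This does not test the labelled cell type, because markers of other cells were read in every library too. RNA from tagged ribosomes of other cells and untagged RNA carried over cannot be told apart here.

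At a synapse, a vesicle is docked and primed by RIM and Unc13 proteins, and Vamp2 on the vesicle zips together with a syntaxin such as Stx1a and with Snap25 on the plasma membrane, under the guidance of syntaxin-binding proteins. Complexins hold and promote the partly zippered complex, and synaptotagmins or Doc2 proteins trigger fusion when calcium enters. Other members of the same families serve endosomes, lysosomes and secretion in cells that are not neurons. CA1 pyramidal neurons release glutamate from their axon terminals, and these libraries hold the mRNAs on tagged ribosomes wherever in the cell those ribosomes were.

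Levels are given in CPM, counts brought to a common library size with TMM scaling, and compared between genes only per kb of the longest coding transcript, which was found for 65 of the 66 genes. Snap25 had the highest mean level per length of all members, at 877 CPM per kb, followed by Vamp2 at 496 CPM per kb and Cplx2 at 367 CPM per kb. With Syt1 at 230 CPM per kb and Syt11 at 219 CPM per kb, these 5 genes made up 55.2% ± 1.05 (SD, n = 6) of the summed level per length in wild type and 55.8% ± 0.988 (SD, n = 6) in Fmr1 KO. The proteins of the fusion reaction at the synapse thus led the list, together with Syt11, a synaptotagmin that does not bind calcium.

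**Figure D1:**
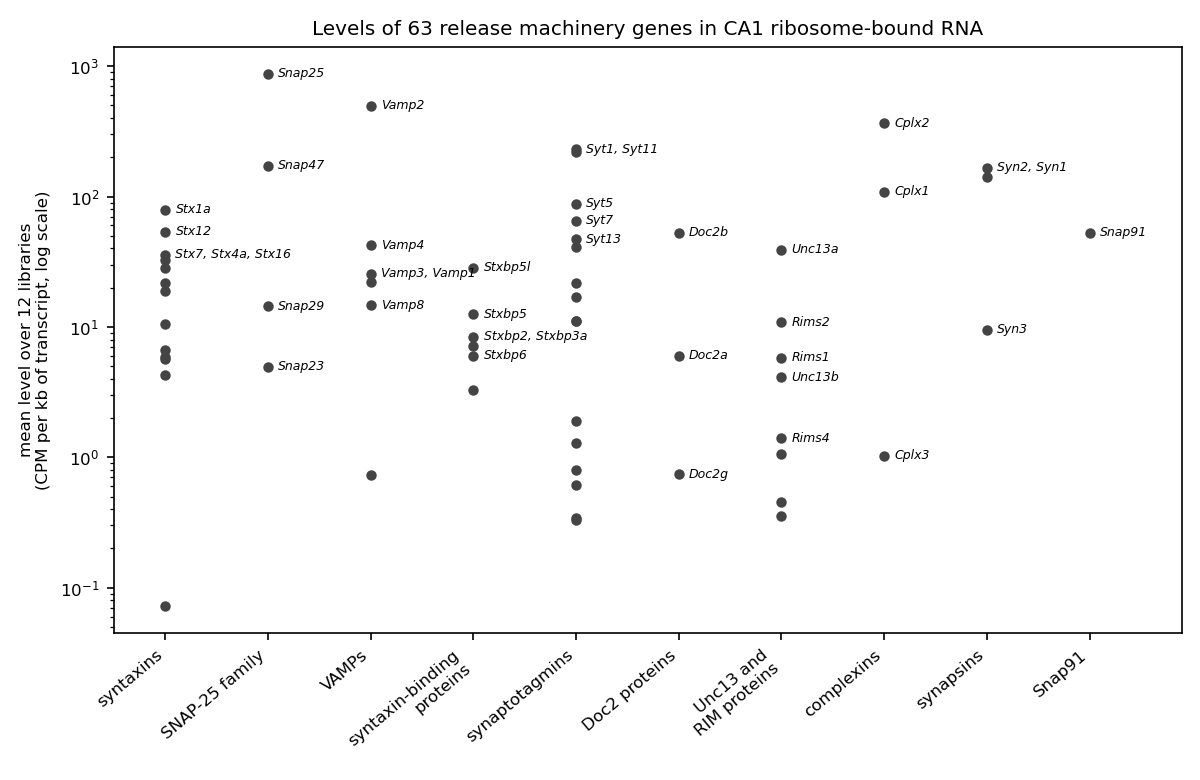
Mean level over the 12 libraries, in CPM per kb of transcript on a log scale, of 63 members with a known transcript length, arranged by role. Each point is 1 gene, and the names mark high genes of each role; Snap25 stands at 877 CPM per kb and Stx11, the lowest point, at 0.0719 CPM per kb.

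In most families 1 paralog held most of the level per length. Among the 4 SNAP-25 relatives, Snap25 took 81.9% ± 1.16 of the summed level per length in wild type and 82.2% ± 1.06 in Fmr1 KO (SD, n = 6 each). Snap47, a relative without a membrane anchor, was next with 172 CPM per kb. Among the 6 VAMPs, Vamp2 took 82.4% ± 2.44 in wild type and 82.2% ± 2.29 in Fmr1 KO (SD, n = 6 each). Vamp4, which works in traffic between endosomes and the trans-Golgi network, followed with 42.5 CPM per kb. The syntaxins were spread more evenly: Stx1a had 79.5 CPM per kb and Stx12, a syntaxin of endosomes, 53.6 CPM per kb.

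Among the priming proteins, Unc13a (Munc13-1) took 88.1% ± 1.09 of the summed level of the 4 Unc13 genes in wild type and 87.1% ± 1.76 in Fmr1 KO (SD, n = 6 each), with a mean of 39.2 CPM per kb. Rims2 was the highest RIM gene with 10.9 CPM per kb. In the syntaxin-binding class, Stxbp5l (tomosyn-2), which sequesters syntaxin and SNAP-25, had 28.5 CPM per kb. The synapsins, which tether vesicles of the reserve pool, were led by Syn2 with 167 CPM per kb and Syn1 with 142 CPM per kb. Their order is not firm: with the union of all exons as the length, Syn1 came before Syn2, whereas the leading gene stayed the same in the other 9 of 10 role classes. Among these, the class of Snap91 holds that gene alone, so its leading gene could not change. Snap91 had 52.9 CPM per kb.

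**Figure D2:**
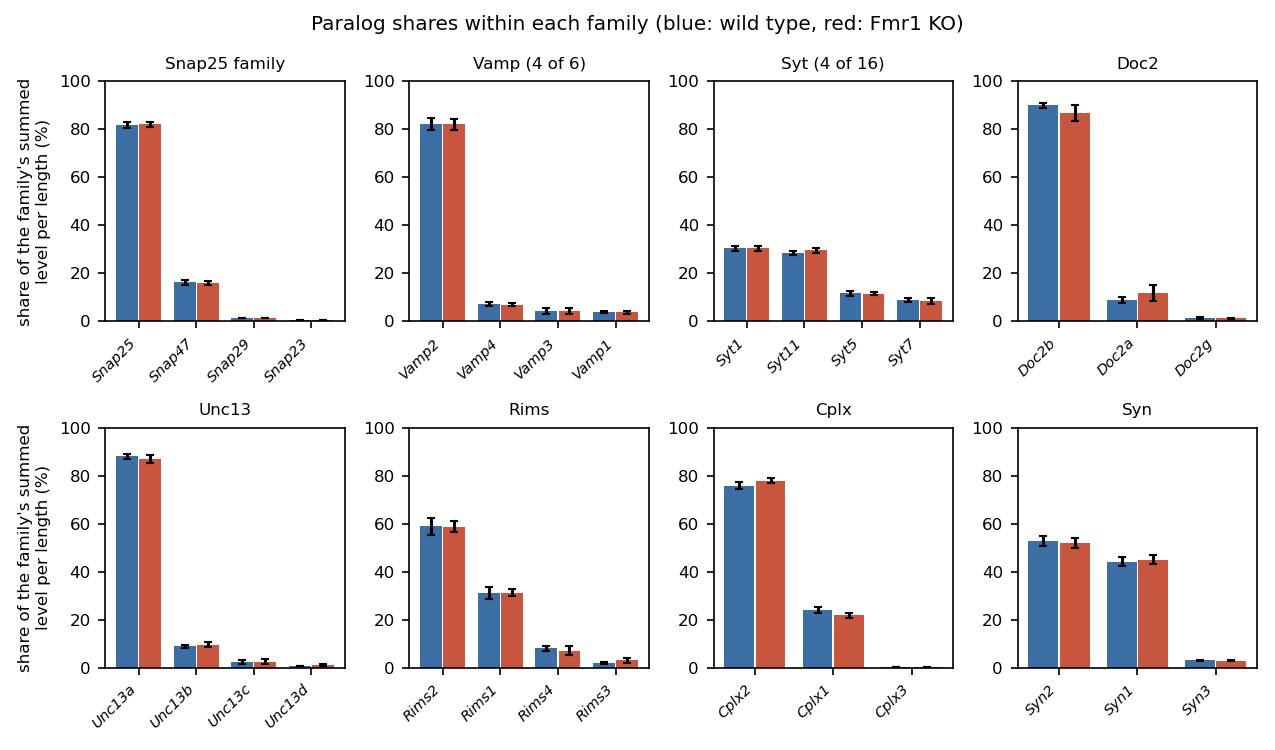
Share of each gene in the summed level per length of its family, in percent, as the mean over 6 wild-type (blue) and 6 Fmr1 KO (red) libraries with SD bars, for the highest 4 genes at most. Snap25 and Vamp2 hold over 80% of their families in both genotypes, and the bars of the genotypes lie close to each other in each family.

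To compare the genotypes, edgeR's quasi-likelihood test was run over all 17823 genes with Benjamini-Hochberg adjustment. No member had an adjusted p under 0.05, and the smallest was 0.199. Over all genes, 0.0224% (4 genes) passed. At an unadjusted p under 0.05, 4 of the 66 members (6.06%) were lower in Fmr1 KO, namely Doc2b, Cplx1, Syt12 and Syt17, beside 3.67% of all genes. At the same limit 4 members (6.06%) were higher, namely Stxbp3a, Stxbp6, Rims3 and Vamp8, beside 4.29% of all genes. As 1 member is 1.52% of the set, these shares differ from those of all genes by less than 2 members. DESeq2's Wald test, which the study used in an earlier version, gave 1 member with an adjusted p under 0.05 in each direction. They were Doc2b, lower, beside 0.36% of the 14713 genes with an adjusted p, and Stxbp3a, higher, beside 0.211% of these genes. The same genes were the members whose libraries did not overlap between genotypes: Doc2b was lower in all 6 Fmr1 KO libraries, as were 0.41% of all genes tested, and Stxbp3a was higher in all 6, as were 0.213%. These libraries hold RNA immunoprecipitated with tagged ribosomes, and no library of the starting homogenate was compared. Whether a difference lies in the mRNA per cell, its binding to ribosomes, the number of cells or carried-over RNA was not tested.

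Over the 66 members, the median log2 fold change of Fmr1 KO over wild type was -0.014, and that of all genes 0.0042. It was negative in 40 members and positive in 26, with a range of -0.36 to 0.63. With library totals in place of TMM, 31 were negative and 35 positive, so the balance of signs depends on the scaling. The core fusion genes lay close to 0: the log2 fold change of Snap25 was 0.03 (95% interval -0.13 to 0.19) and that of Vamp2 -0.03 (-0.18 to 0.13). A difference in Stx1a was less tightly bounded, at 0.14 (-0.09 to 0.37), and its value was 0.05 without Fmr1 KO pool 5 and 0.08 without Fmr1 KO pool 4. For Syt1 the interval was -0.15 to 0.10 around a log2 fold change of -0.02, and for Unc13a -0.18 to 0.10 around -0.04. These intervals leave room for differences of the size they span and do not show equal levels.

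**Figure D3:**
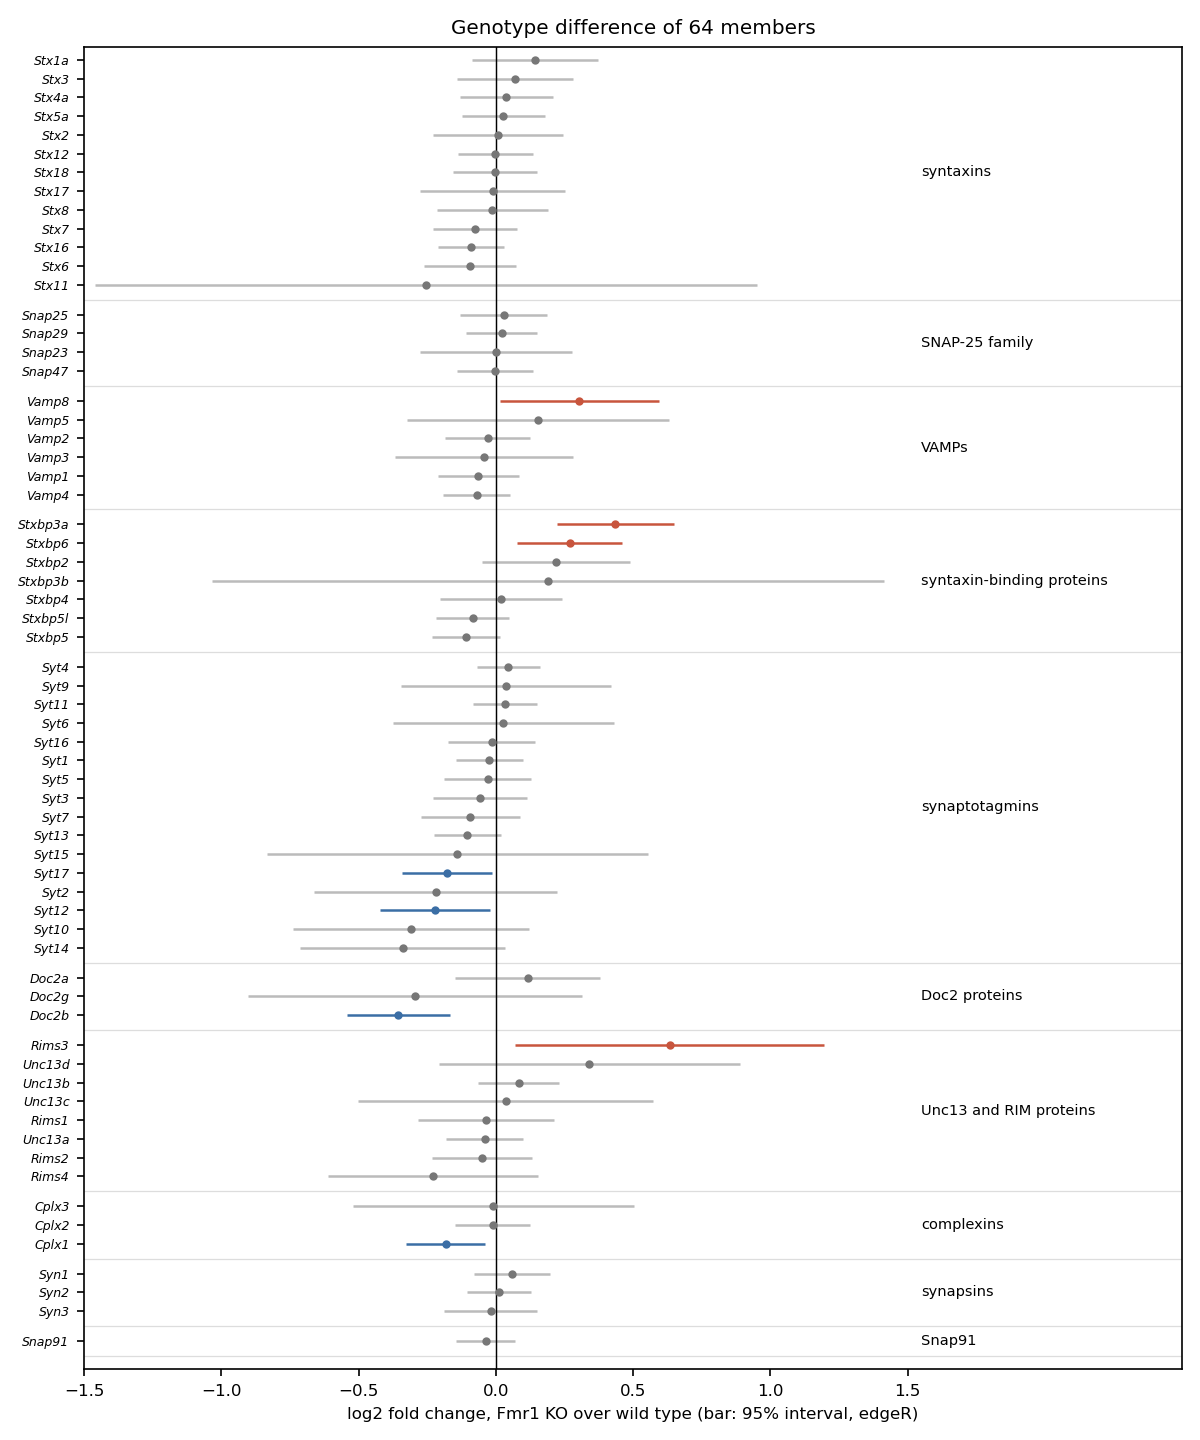
Log2 fold change of Fmr1 KO over wild type (horizontal axis) of 64 members, grouped by role, with 95% intervals from edgeR. Blue marks the 4 members that are lower and red the 4 that are higher at an unadjusted p under 0.05; grey members have a larger p, and the widest intervals belong to Stx11 and Stxbp3b.

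Doc2b encodes a C2-domain protein with high calcium affinity that promotes spontaneous and asynchronous release. It lies on chromosome 11 from 75768270 to 75796060 (GRCm38, the build named mm10). In wild type its level was 234 CPM at the lowest, 253 at the median and 309 at the highest, and in Fmr1 KO 167, 209 and 232 CPM. Every Fmr1 KO library was below every wild-type library. Wild-type pool 1 was far above the other wild-type pools at 309 CPM, and Fmr1 KO pools 4 and 5 were the lowest with 171 and 167 CPM. The mean was 259 ± 25.6 CPM in wild type and 202 ± 28.5 in Fmr1 KO (SD, n = 6 each), which is 78.2% of the wild-type mean. The log2 fold change was -0.36 (SE 0.089, 95% interval -0.54 to -0.17), with an unadjusted p of 0.00091 and an adjusted p of 0.244 in edgeR. DESeq2 gave an adjusted p of 0.0399, and this call held in 4 of 12 fits that left out 1 library (adjusted p 0.0162 to 0.138). The study lists Doc2b among its own differentially regulated genes, found in these same libraries, so the 2 calls are not independent. Without wild-type pool 1 the log2 fold change was -0.30 in edgeR (adjusted p = 0.377) and the DESeq2 adjusted p 0.121. The call did not hang on this pool alone. In DESeq2 the log2 fold change was -0.31 without Fmr1 KO pool 4 (adjusted p 0.0999) and -0.31 without Fmr1 KO pool 5 (0.132). The largest DESeq2 adjusted p, 0.138, came without Fmr1 KO pool 1.

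The other Doc2 genes were far below Doc2b. Doc2a, its paralog in evoked asynchronous release, had 10.8 CPM at the lowest, 14.9 at the median and 17.5 at the highest in wild type, and 13.4, 14.6 and 20.5 CPM in Fmr1 KO. The genotypes overlapped, and the log2 fold change was 0.12 (SE 0.13, adjusted p = 0.890 in edgeR). It was 0.03 without Fmr1 KO pool 5, 0.07 without Fmr1 KO pool 4 and 0.04 without wild-type pool 4. Within a library, Doc2b had 14.5 to 21.6 reads per Doc2a read in wild type (median 17.4) and 8.14 to 16.2 in Fmr1 KO (median 15.1). These ratios are of raw reads, not divided by length, so they serve the comparison of genotypes and not the relative level of the genes. The ratios overlapped between genotypes, and their difference was not tested. Per length, Doc2b made up 90.0% ± 1.15 of the Doc2 level in wild type and 86.8% ± 3.40 in Fmr1 KO (SD, n = 6 each). Doc2g, the third of the family, had 1.2 ± 0.46 CPM in wild type and 0.976 ± 0.206 in Fmr1 KO (SD, n = 6 each).

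Stxbp3a (Stxbp3 in RefSeq) encodes Munc18c, which pairs with Stx4 in exocytosis at the plasma membrane of many cell types. It lies on chromosome 3 from 108793180 to 108840502. Its level was 13.4 CPM at the lowest, 14.4 at the median and 16.4 at the highest in wild type, and 17.5, 18.7 and 25.8 CPM in Fmr1 KO. Every Fmr1 KO library was above every wild-type library, and pool 1 was the highest of them. The means were 14.8 ± 1.28 and 19.96 ± 3.14 CPM (SD, n = 6 each), so the Fmr1 KO mean was 135% of the wild-type mean. The log2 fold change was 0.43 (SE 0.10, 95% interval 0.22 to 0.65), with an unadjusted p of 0.00047 and an adjusted p of 0.199 in edgeR. DESeq2 gave an adjusted p of 0.0158, and 8 of 12 fits that left out 1 library kept it under 0.05 (0.0129 to 0.0997). Without Fmr1 KO pool 1, the log2 fold change was 0.35 in edgeR (adjusted p = 0.381). Stxbp3b, a pseudogene copy (Stxbp3-ps in RefSeq), had under 1 CPM in every library. Reads that match both copies may have been left out in counting, so the level of Stxbp3a is uncertain to that extent.

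As in all 66 members, edgeR gave no adjusted p under 0.05 in the genes that work with Munc18c or resemble it, so this does not set them apart. Stx4a (Stx4), chosen here for this partnership, had 46.9 ± 4.30 CPM in wild type and 48.1 ± 4.89 in Fmr1 KO (SD, n = 6 each), with a log2 fold change of 0.04 (95% interval -0.13 to 0.21). Snap23, a SNAP-25 relative, had 13.6 ± 2.16 and 13.6 ± 2.71 CPM (SD, n = 6 each). Stxbp2 (Munc18b) had 22.6 ± 2.82 and 26.3 ± 5.98 CPM (SD, n = 6 each). Its log2 fold change was 0.22 (95% interval -0.05 to 0.49), positive like that of Stxbp3a, with an unadjusted p of 0.103 in edgeR.

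Of the other members lower at an unadjusted p under 0.05, Cplx1 encodes complexin 1 (chromosome 5, 108518554 to 108550027). It had 221 CPM at the lowest, 254 at the median and 275 at the highest in wild type, and 194, 225 and 245 CPM in Fmr1 KO. The genotypes overlapped, because wild-type pool 1 was the lowest of its genotype. The log2 fold change was -0.18 (SE 0.069, unadjusted p 0.016, adjusted p = 0.493 in edgeR). Cplx2, the major complexin of forebrain excitatory neurons, had 1814 ± 155 and 1799 ± 114 CPM (SD, n = 6 each), a log2 fold change of -0.01 whose sign turned with library totals. Per Cplx2 read there were 0.130 to 0.160 Cplx1 reads in wild type and 0.114 to 0.136 in Fmr1 KO, with an overlap between genotypes and no test of the difference. This ratio too is of raw reads, not divided by length.

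Syt12 and Syt17 encode synaptotagmins without a known calcium trigger role in fusion. Syt12 (chromosome 19, 4445908 to 4477143) had 61.1 CPM at the lowest, 62.4 at the median and 79.3 at the highest in wild type, and 42.3, 55.5 and 65.9 CPM in Fmr1 KO. Wild-type pool 1 stood alone at the top, as it did for Doc2b, and Fmr1 KO pool 4 at the bottom. The log2 fold change of Syt12 was -0.22 (SE 0.095, unadjusted p 0.033, adjusted p = 0.573 in edgeR), and it was -0.16 (unadjusted p 0.0998) without wild-type pool 1. Syt17 (chromosome 7, 118380713 to 118448583) had 31.2 CPM at the lowest, 33.9 at the median and 39.2 at the highest in wild type, and 27.6, 30.2 and 35.0 CPM in Fmr1 KO. The genotypes overlapped, and the log2 fold change was -0.18 (SE 0.077, unadjusted p 0.034, adjusted p = 0.573 in edgeR). With library totals in place of TMM the p of Syt17 was 0.074. These were the 2 of 16 synaptotagmins tested that were lower at an unadjusted p under 0.05, beside 3.67% of all genes.

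Stxbp6 encodes amisyn, a brain-enriched protein that binds Stx1a and SNAP-25 through a VAMP-like coil (chromosome 12, 44852484 to 45075118). Its level was 20.7 CPM at the lowest, 25.4 at the median and 27.2 at the highest in wild type, and 26.6, 29.0 and 36.6 CPM in Fmr1 KO. The genotypes overlapped only in a narrow range, with wild-type pool 5 lowest and Fmr1 KO pool 5 highest. The log2 fold change was 0.27 (SE 0.090, 95% interval 0.08 to 0.46, unadjusted p 0.0084, adjusted p = 0.410 in edgeR). It ranged from 0.20 to 0.30 over all alternatives, with an unadjusted p of at most 0.025.

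Vamp8 encodes endobrevin, a SNARE of late endosomes, autophagosome fusion and secretion outside neurons (chromosome 6, 72385221 to 72390667). It had 20.6 CPM at the lowest, 26.7 at the median and 32.9 at the highest in wild type, and 28.2, 30.7 and 48.9 CPM in Fmr1 KO. Pool 1 of Fmr1 KO stood far above the others, and the genotypes overlapped. The log2 fold change was 0.30 (SE 0.14, unadjusted p 0.040, adjusted p = 0.60 in edgeR), and without that pool it was 0.17 (unadjusted p 0.151). Rims3 encodes a short RIM isoform at the active zone (chromosome 4, 120854779 to 120896580). It was low, with 1.32 CPM at the lowest, 2.36 at the median and 2.97 at the highest in wild type, and 1.63, 3.1 and 6.34 CPM in Fmr1 KO. Its log2 fold change of 0.63 (SE 0.27, unadjusted p 0.030, adjusted p = 0.554 in edgeR) was 0.39 (unadjusted p 0.122) without Fmr1 KO pool 5, the highest library.

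**Figure D4:**
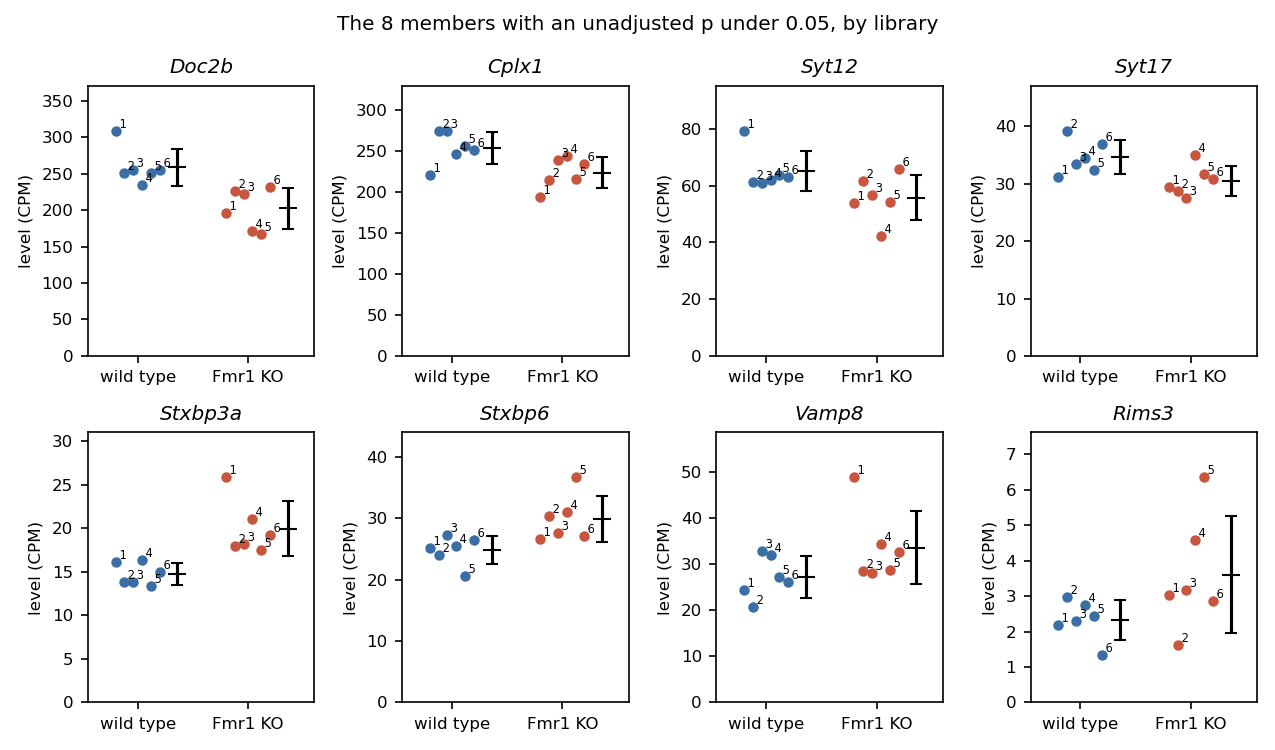
Level in CPM of the 8 members with an unadjusted p under 0.05, in each wild-type (blue) and Fmr1 KO (red) library, numbered by pool, with the mean and SD beside the points. Doc2b and Stxbp3a are the 2 genes whose libraries do not overlap. Vamp8 shows Fmr1 KO pool 1 far above the rest, and Rims3 is highest in Fmr1 KO pools 5 and 4.

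Marker genes of 8 cell classes were read beside these members, and neither edgeR nor DESeq2 gave a marker an adjusted p under 0.05. The smallest adjusted p in edgeR was 0.301, in the choroid plexus list, and each marker's libraries overlapped between genotypes. The 7 CA1 pyramidal markers all had a negative log2 fold change, with Wfs1 and Neurod6 at an unadjusted p under 0.05; their summed level ranged from 8362 to 10380 CPM in wild type (median 9629) and from 8069 to 9595 CPM in Fmr1 KO (median 8840). Wild-type pool 1 had the highest sum as well as the highest Doc2b, and Fmr1 KO pool 4 had the lowest sum. Fmr1 KO pool 5, with the lowest Doc2b, had a sum of 9032 CPM, above the median of its genotype. The 4 choroid plexus markers all had a positive log2 fold change, 3 of them (Ttr, Folr1 and Kcnj13) at an unadjusted p under 0.05, and their sum ranged from 6204 to 11617 CPM in wild type (median 8032) and from 8133 to 17089 CPM in Fmr1 KO (median 10986). By mean level, Ttr made up most of this sum (8323 CPM in wild type, 11319 CPM in Fmr1 KO). Camk2a likewise made up most of the CA1 pyramidal sum (6207 and 5826 CPM). Fmr1 KO pool 1 had the highest choroid plexus sum and the highest Vamp8 and Stxbp3a, and also the highest astrocyte sum (1188 CPM) and microglial sum (83.9 CPM) of the 12 libraries. Fmr1 KO pool 4 came next in its genotype in the choroid plexus sum (13505 CPM), Stxbp3a (21.1 CPM) and Vamp8 (34.5 CPM). Fmr1 KO pool 5 had a sum above the median of its genotype (11479 CPM) and the lowest Fmr1 KO level of Stxbp3a (17.5 CPM). In wild type, pool 2 had both the lowest choroid plexus sum and the lowest Vamp8, and pool 3 the highest of both, whereas Stxbp3a in wild-type pool 3 was 13.8 CPM.

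The 5 endothelial markers all had a positive log2 fold change (wild type 29.4 to 41.8 CPM, Fmr1 KO 34.6 to 53.8 CPM), and so did the 5 astrocyte markers (698 to 846 CPM and 762 to 1188 CPM). In each of these lists 2 genes had an unadjusted p under 0.05. The highest endothelial sum and the highest Stxbp6 were both in Fmr1 KO pool 5. In contrast, Fmr1 KO pool 4 had the lowest endothelial sum of its genotype (34.6 CPM) and the second highest Stxbp6 (30.9 CPM), and wild-type pool 4 had the highest wild-type sum (41.8 CPM) with a Stxbp6 level of 25.5 CPM. GABAergic, oligodendrocyte, microglial and other principal cell markers had no gene at that limit. No marker of any list was at 0 in any library. The part of these marker levels in the values of Doc2b, Stxbp3a, Stxbp6 and Vamp8 was not tested.

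**Figure D5:**
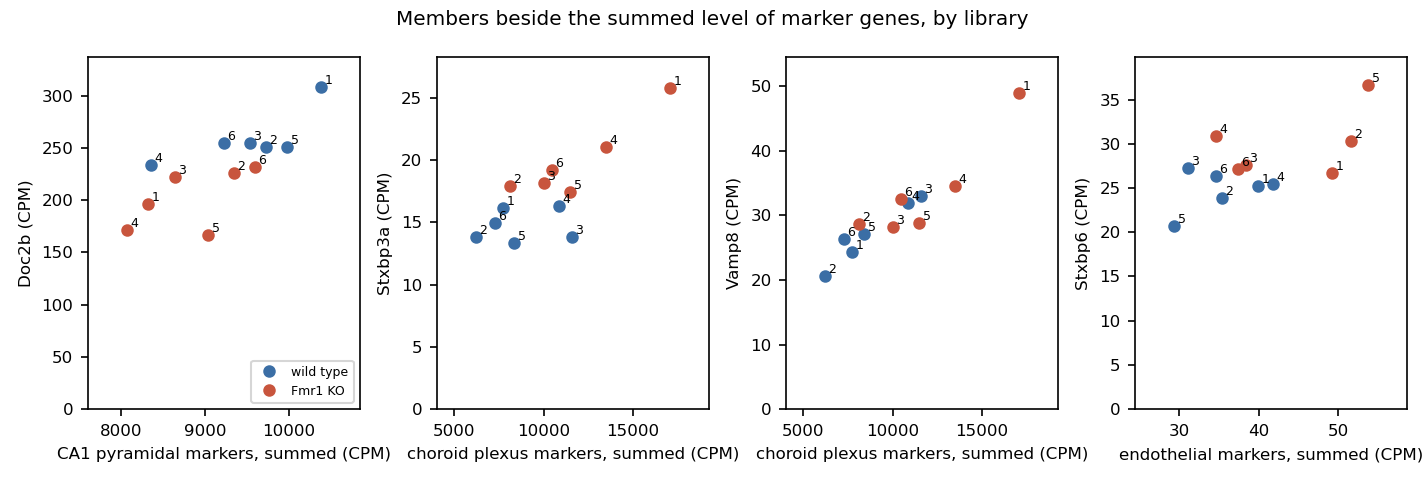
Level of Doc2b, Stxbp3a, Vamp8 and Stxbp6 (vertical axes, CPM) against the summed level of marker genes (horizontal axes, CPM) in the 6 wild-type (blue) and 6 Fmr1 KO (red) libraries, numbered by pool. Fmr1 KO pool 1 is at the top right for Stxbp3a and Vamp8, with a choroid plexus sum of 17089 CPM. By mean level, Ttr makes up most of the choroid plexus sum and Camk2a most of the CA1 pyramidal sum.

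Among members with a mean of at least 1 CPM, the largest differences after those of Doc2b, Stxbp3a and Rims3 were in genes of low level and had wide intervals. Syt14 had 3.44 ± 0.786 CPM in wild type and 2.71 ± 0.426 in Fmr1 KO (SD, n = 6 each), and a log2 fold change of -0.34 (95% interval -0.71 to 0.03). Syt10, known as the calcium sensor of IGF-1 secretion in olfactory bulb neurons, had 2.65 ± 0.660 and 2.13 ± 0.527 CPM (SD, n = 6 each), with -0.31 (-0.74 to 0.12). Unc13d, the Munc13 of granule release in blood cells, had 1.27 ± 0.268 and 1.61 ± 0.597 CPM (SD, n = 6 each), with 0.34 (-0.21 to 0.89). The SE was 0.18 for Syt14, 0.20 for Syt10 and 0.26 for Unc13d, against 0.089 for Doc2b. None of them had an unadjusted p under 0.05 with all libraries, and that of Syt14 ranged from 0.012 to 0.144 over the alternatives.

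The spread between pools was larger in Fmr1 KO than in wild type for 48 of the 66 members (72.7%), beside 63.6% of all genes tested. The median coefficient of variation of the members was 9.33% in wild type and 11.2% in Fmr1 KO, and that of all genes 13.6% and 16.4%. All genes include many of low level. Among genes with a mean of at least 10 CPM, the median was 8.52% and 9.26% in 51 members, beside 8.84% and 10.3% in 9693 genes. At this level the spread was larger in Fmr1 KO for 76.5% of members and 65.9% of genes. Fmr1 KO pools 4 and 5 stood apart in several members: they had the highest Stx1a (219 and 234 CPM, beside 150 to 173 CPM in the other Fmr1 KO pools) and the highest Doc2a (18.2 and 20.5 CPM). They also had the highest Rims3, with 4.59 and 6.34 CPM, and the lowest Doc2b.

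Genes that act beside the fusion machinery were read in 5 lists, in which 3 genes were lower and 1 was higher at an unadjusted p under 0.05, beside 3.67% and 4.29% of all genes. Of 18 further vesicle proteins, such as Syp (mean 3118 CPM in wild type, 3158 in Fmr1 KO) and Rab3a (401 and 388 CPM), none had an unadjusted p under 0.05 in edgeR. None of the 19 genes of SNARE disassembly and other SNAREs did either; Nsf, which takes spent SNARE complexes apart, had 1033 and 974 CPM. Of 20 further active zone genes, 2 were lower at this limit, Cacna1a (P/Q-type calcium channel, log2 fold change -0.18, adjusted p = 0.586) and Ppfia4 (liprin-alpha-4, -0.14, adjusted p = 0.531). Of 22 endocytosis genes, 1 was lower, Synj1 (synaptojanin 1, -0.16, adjusted p = 0.433). Of 13 genes of glutamate supply and loading, 1 was higher, Slc17a8 (VGLUT3, 2.85 and 4.73 CPM, log2 fold change 0.73, adjusted p = 0.378). No gene of these 5 lists had an adjusted p under 0.05 in edgeR.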

How the data were processed

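The authors sequenced stranded, polyadenylated libraries, aligned the reads with TopHat2 2.1.1 and Bowtie2 2.2.8 to mm10, counted reads per gene with HTSeq 0.6.1p1 (union mode, opposite strand) and deposited raw counts without normalization; reads that fell on overlapping genes or were not assigned to 1 gene are left out by this mode. The filter of the study, a total of 15 reads over 12 libraries, was applied. Genotypes were taken from the sample labels and compared with edgeR 4.0.16 (TMM, quasi-likelihood test, no covariate) in R 4.3.3, with adjustment over all 17823 genes and a threshold of 0.05; the fit was tested on simulated data. The SE is the log2 fold change divided by the square root of F. DESeq2 1.42.0, limma 3.58.1 voom, other scalings and filters, a replicate block and each library left out were alternatives. Leaving libraries out of DESeq2 and the union of exons as length were added after the data were seen. Depth was 39400980 to 65565479 reads per library. Lengths are those of GENCODE transcripts and coordinates those of RefSeq (GRCm38.p6), matched by Entrez identifier; no length was found for 1 member. The members and gene lists were chosen with earlier results of these data known. Genes are named where given as leading genes of the set, at an unadjusted p under 0.05, among the highest 2 of a role per length, or among the largest 3 differences per direction at a mean of at least 1 CPM; others are named for their role. The values of 2 members are not reported here, though counts over the members include them. No protein sequences were used here.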

Additional observations from a re-analysis of the deposited data

Results flagged for a closer look

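In 7 of 70 sets of 6 libraries (27 members and 8 marker sums in each genotype), 1 library lay apart from the others by Dixon's ratio of its gap to the whole range, and chance alone flags about 1 in 20 such sets, or 3.5. Wild-type pool 1 was high for Doc2b (ratio 0.725, 309 CPM against 234 to 255 in the other wild-type pools), for Syt12 (0.859, 79.3 against 61.1 to 63.6 CPM) and for the summed markers of other hippocampal principal cells (0.712, 289 against 250.0 to 261 CPM). Fmr1 KO pool 1 was high for Vamp8 (0.694, 48.9 against 28.2 to 34.5 CPM). In wild type, pool 3 was high for Cplx2 (0.679, 2111 against 1673 to 1813 CPM), pool 2 was high for Rims2 (0.812, 62.7 against 49.9 to 52.3 CPM) and pool 4 was low for Snap25 (0.670, 1529 against 1852 to 2011 CPM). The log2 fold changes without wild-type pool 1 (Doc2b, Syt12) and without Fmr1 KO pool 1 (Vamp8) are given with these genes above.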

How the results depend on the processing

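Of 540 log2 fold changes (27 named members under 20 alternatives), 515 kept the sign and the side of an adjusted p of 0.05 found in edgeR, 2 passed it (Doc2b and Stxbp3a in DESeq2), and 23 in 8 members changed sign. No scaling, filter, block or left-out library gave a member past the threshold in edgeR, nor did limma voom, and DESeq2 gave 2. Leaving out 1 library gave 0 to 2 such members in DESeq2. At an unadjusted p under 0.05, the number of members was 5 without Fmr1 KO pool 1 and up to 9 with another library left out, against 8 with all; that of the related genes was 2 (without wild-type pool 2 or 5) to 7 (without Fmr1 KO pool 5), against 4 with all. With library totals the log2 fold change turned to 0.011 for Cplx2, 0.022 for Stx12 and 0.021 for Snap47. With 1 library left out, it ranged from -0.049 to 0.0076 for Syt1, -0.035 to 0.036 for Cplx2, -0.12 to 0.0037 for Rims2, -0.015 to 0.031 for Syn2, -0.034 to 0.033 for Stx12, -0.019 to 0.077 for Snap25, -0.036 to 0.030 for Snap47 and -0.069 to 0.010 for Vamp2. The cause was not tested, but each of these 8 members had an interval that spans 0. Over all alternatives Doc2b ranged from -0.40 to -0.30 (adjusted p 0.0399 to 0.494) and Stxbp3a from 0.35 to 0.47 (0.0158 to 0.481).

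The genotypes share replicate numbers. Same-numbered pools had deviations that correlated by -0.081 to 0.090 over all genes, and by -0.44 to 0.60 over the 5987 genes with a mean log2 CPM over 5. In both sets at least 1 pair was under 0.1, the minimum asked of every pair, so the pools were treated as sharing only a number. With the replicate block 8 members had an unadjusted p under 0.05 and 0 an adjusted p under 0.05, the median was -0.021 and 6 related genes had an unadjusted p under 0.05.

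Depth limits the low members most: the SE of the log2 fold change was 0.18 to 0.58 in the 11 members under 5 CPM and 0.051 to 0.25 in the other 55. The pools are separate groups of mice, so the spread holds variation between animals in part only. The lane of each library is not given in the sources used here.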
